A study of Mus musculus with 50 samples.

Results

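The comparison described here is the first 24 h of the conversion of mouse embryonic stem (ES) cells from 2i medium to epiblast-like cells (epiLC), 4 of the 50 samples of the series. It set 2 RNA-seq libraries of epiLC at 24 h against 2 libraries of the starting cells in 2i, over all genes that reached 1 TPM in 2 or more libraries of their table. TPM is the level of a transcript after scaling for its length, with every library brought to the same total. By that rule 16559 of the 55421 genes listed entered the test. The series concerns proteins associated with β-catenin in ground state ES cells, and these libraries are a time course with no perturbation in their labels. All came from V6.5, a widely used line of mouse ES cells, and no label of these samples names a hairpin or an edited gene. The starting group (labelled V6.5_ES_2i) was kept in 2i medium. The other group (labelled V6.5_ES_epiLC_24hr) carries epiLC media as its culture condition, although its growth protocol again reads 2i media. The same table holds 2 libraries of epiLC at 48 h (labelled V6.5_ES_epiLC_48hr), which shared the fit and serve below to show where the 24 h values lie. The labels give no composition of the epiLC media, and they do not state whether replicates are separate cultures. The p-values therefore rest on a spread between libraries that may be technical only.

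2i medium holds ES cells in the naive state with an inhibitor of MEK, the kinase that activates ERK, and an inhibitor of GSK3, the kinase that marks β-catenin for destruction. Naive cells resemble the epiblast of the blastocyst before implantation and run on a network of transcription factors that includes Nanog, Esrrb, Klf2, Klf4, Tfcp2l1 and Tbx3. When the inhibitors are withdrawn and FGF and activin signals act, the cells leave this state and pass through a formative state like the early post-implantation epiblast, in which Otx2, Pou3f1, Fgf5 and the de novo DNA methyltransferases are active.

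The replicate libraries were close to each other. Across the genes tested, the median absolute difference in log2(TPM + 1) was 0.0672 between the 2i libraries and 0.0561 between the 24 h libraries, against 0.45 to 0.465 between a 2i and a 24 h library. Each 2i library had 15016 or 15036 genes at 1 TPM or more, and each 24 h library had 14625 or 14581. Transcripts encoded by the mitochondrial genome took 3.88% and 3.65% of TPM in 2i and 3.24% and 3.18% at 24 h. TPM keeps no depth, so the depth behind each value is unknown and no counting interval is given. An exact permutation test of 2 libraries against 2 cannot give a p below 0.333, and each p-value below is from a limma fit over all genes tested, adjusted by the Benjamini-Hochberg method, with a threshold of 0.05. Log2 changes are on the log2(TPM + 1) scale, on which low genes appear to change less than they do.

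Most of the transcriptome had moved within a day. Of the 16559 genes, 12578 passed the threshold, which is 76.0%. Of all genes tested, 5992 (36.2%) were higher at 24 h and 6586 (39.8%) were lower. Changes of at least 2-fold were fewer, with 1231 genes higher (7.43%) and 1712 lower (10.3%). The libraries of the groups did not overlap for 14516 genes (87.7%). The median change of all genes tested was -0.04. Counts of list members below are read against these shares. Of the genes tested, 470 passed the minimum only through the 2i libraries and 195 only through the 24 h libraries, and such genes had to differ.

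**Figure D1:**
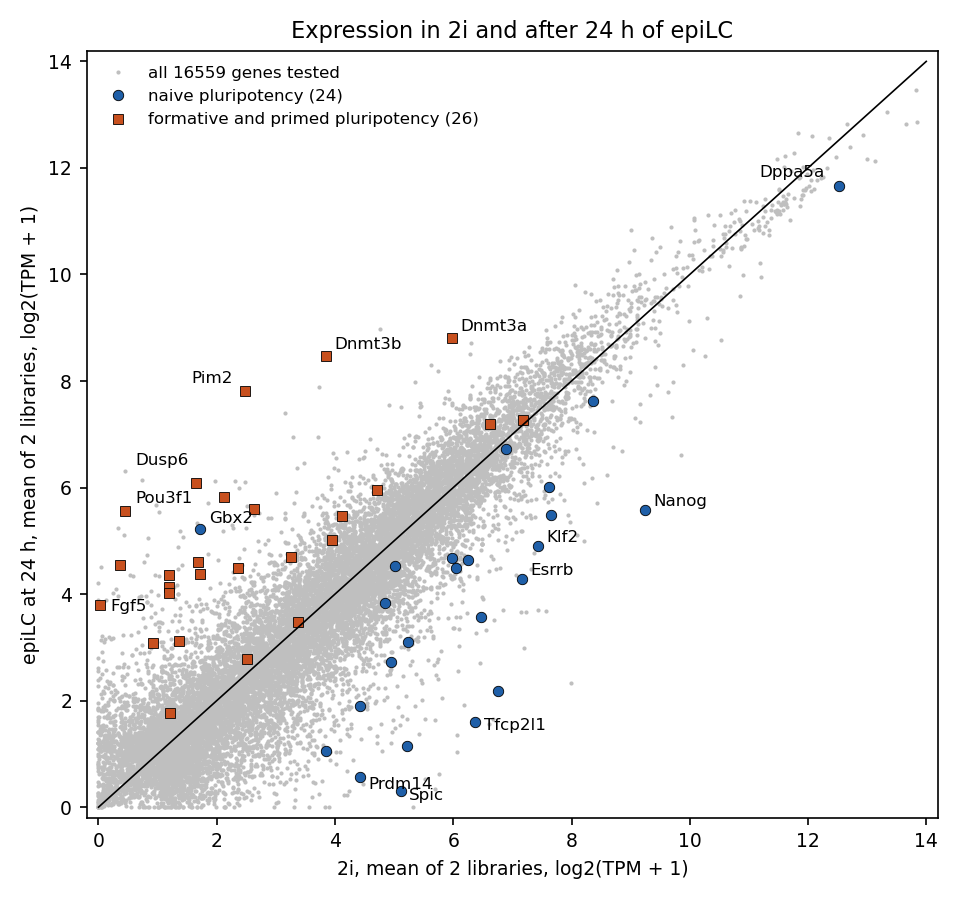
Mean log2(TPM + 1) of the 2 libraries in 2i (x axis) against that of the 2 libraries at 24 h of epiLC (y axis), with a grey point for each gene tested and a line where both are equal. The 24 naive genes (blue circles) lie below the line apart from Gbx2, and the 26 formative and primed genes (orange squares) lie on or above it.

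Most genes of the naive network were lower at 24 h. Of the 24 naive genes on the list, 22 fell, 19 of them by at least 2-fold, 1 rose and 1 did not pass, and the median change was -2.20. Nanog, the homeobox factor at the centre of the network, had 601 and 605 TPM in 2i and 47.1 and 46.7 TPM at 24 h. Both libraries at 24 h lay far below both in 2i, a log2 change of -3.66 (SE 0.05, adjusted p = 3.45e-08). Bulk cultures were sampled, so fewer cells expressing a gene and less RNA per cell cannot be told apart. Esrrb, an orphan nuclear receptor of the network, went from 141 and 142 TPM to 18.3 and 18.8 TPM. Its 24 h libraries stood at about the same level as each other and its log2 change was -2.87 (SE 0.051, adjusted p = 6.89e-08).

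The deepest falls left genes at a few TPM or less. Tfcp2l1, a transcription factor downstream of LIF and STAT3, had 83.9 and 79.8 TPM in 2i and 1.96 and 2.13 TPM at 24 h, a log2 change of -4.77 (SE 0.093, adjusted p = 9.10e-08). Tbx3, a T-box factor, had 36.2 and 36 TPM in 2i and 1.22 and 1.2 TPM at 24 h, and Jam2, a junctional adhesion molecule, had 108 and 107 TPM in 2i and 3.16 and 3.94 TPM at 24 h. Every 2i value of these 3 genes was above every 24 h value. Spic, an ETS-family factor, had 34 and 33.3 TPM in 2i and 0.23 and 0.23 TPM at 24 h, and Prdm14, which represses DNA methyltransferase genes in naive cells, had 19.8 and 20.9 TPM in 2i and 0.5 and 0.48 TPM at 24 h. Both of these genes passed the minimum of 1 TPM only through their 2i libraries.

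Other naive genes differed in how far the fall had gone by 24 h. Klf4, a Krüppel-like factor, had 13.5 and 13.3 TPM in 2i and 1.12 and 1.03 TPM at 24 h, and its 48 h libraries stood at 1.25 and 1.07 TPM. Dppa3, a maternal factor that protects DNA methylation in the zygote, had 89.2 and 86.7 TPM in 2i and 11 and 10.8 TPM at 24 h. These genes were at about their 48 h level after the first day. Klf2, another Krüppel-like factor, had 169 and 176 TPM in 2i and 27.8 and 30.1 TPM at 24 h, and its level at 48 h was lower again, at 5.56 and 4.71 TPM. Zfp42, the zinc finger gene known as Rex1, had 195 and 197 TPM in 2i and 62 and 64.5 TPM at 24 h and 22 and 20.7 TPM at 48 h. Dppa5a, which encodes an RNA-binding protein, stayed among the most abundant transcripts at 3208 and 3299 TPM, from 5904 and 5874 TPM in 2i, and its change of -0.86 was under 2-fold.

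A few genes of the naive list were still near their starting level. Nr0b1, the orphan receptor known as Dax1, had 32.4 and 30.00 TPM in 2i and 21.8 and 22.6 TPM at 24 h, a log2 change of -0.47 (adjusted p = 0.000253), and then 0.94 and 0.97 TPM at 48 h. Fgf4, the ligand through which ES cells activate ERK, had 117 and 118 TPM in 2i and 104 and 106 TPM at 24 h, and its difference did not pass (log2 change -0.17, SE 0.065, adjusted p = 0.0535). Gbx2, a homeobox gene on the naive list, went the other way, with 2.2 and 2.43 TPM in 2i and 37.3 and 35.3 TPM at 24 h (log2 change 3.5, adjusted p = 6.89e-08), and 96.8 and 105 TPM at 48 h.

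Pou5f1 and Sox2, the core pluripotency factors shared by naive and primed cells, changed little over the same day. Pou5f1 (Oct4) had 1047 and 1080.2 TPM in 2i and 1234 and 1279.9 TPM at 24 h. Its 24 h libraries were both above its 2i libraries, by a log2 change of 0.24 (SE 0.031, adjusted p = 0.000359). Sox2 had 132 and 131 TPM in 2i and 91.7 and 93.5 TPM at 24 h, lower in both libraries at 24 h, with a log2 change of -0.50 (SE 0.03, adjusted p = 6.96e-06). Of the 14 genes of the core list, 12 rose, 8 of them by at least 2-fold, Sox2 alone fell, and Tdgf1 did not pass at 314 and 326 TPM in 2i and 331 and 335 TPM at 24 h. Utf1, a chromatin protein of pluripotent cells, was among the 15 largest rises of all genes, with 25.6 and 26.8 TPM in 2i and 507 and 504 TPM at 24 h (log2 change 4.22, SE 0.034, adjusted p = 1.91e-08). Lin28a, which blocks the maturation of let-7 miRNAs, had 12 and 12.6 TPM in 2i and 236 and 235 TPM at 24 h, a ratio of means of 19.1. Zscan10, a zinc finger factor of pluripotent cells, had 23 and 23.3 TPM in 2i and 119.6 and 119 TPM at 24 h.

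**Figure D2:**
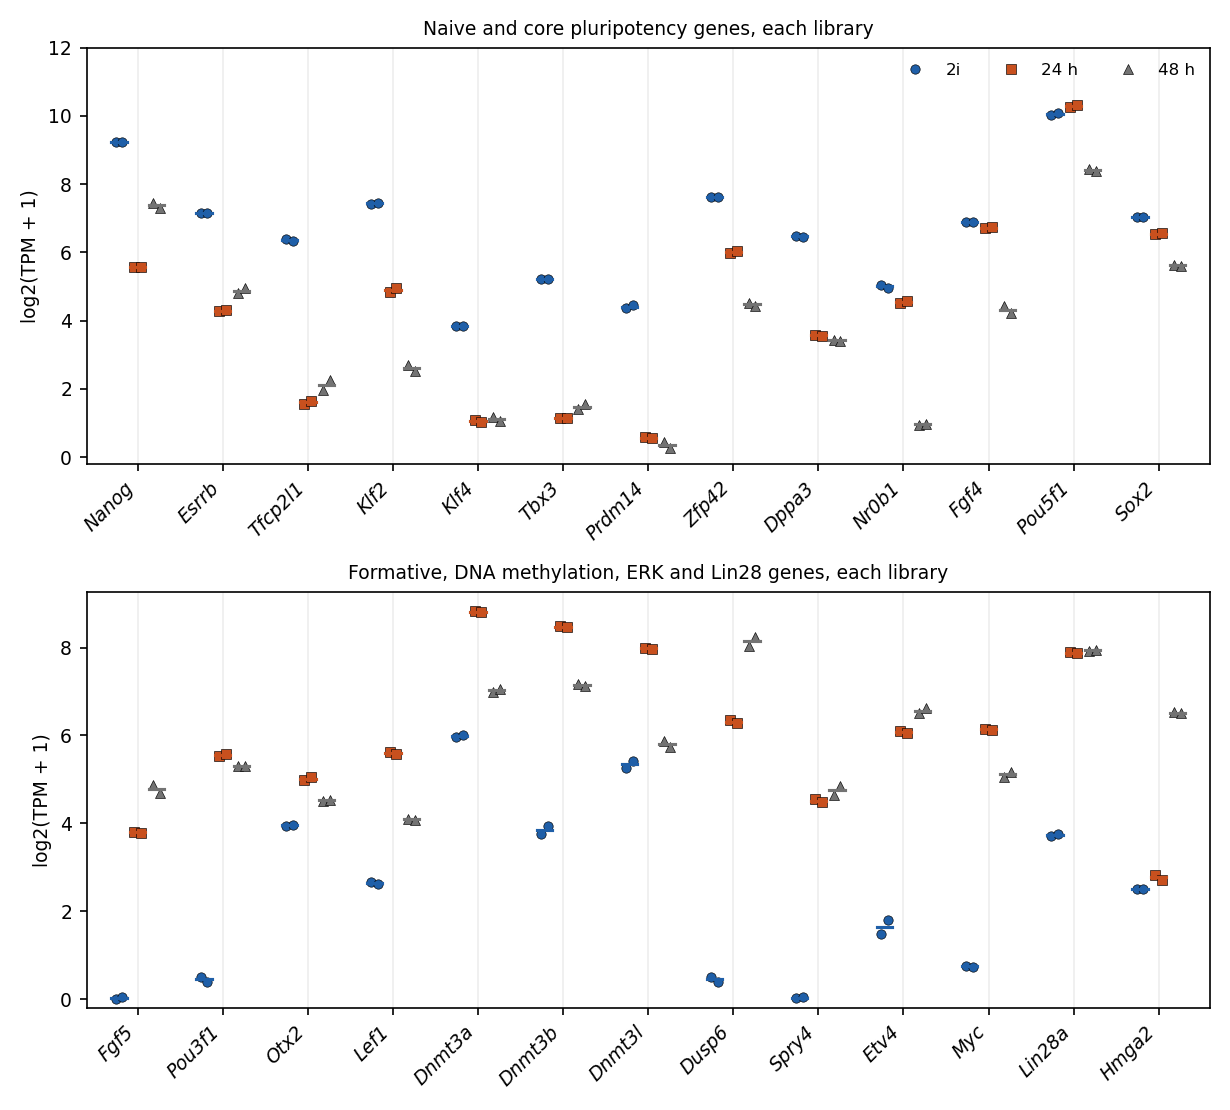
Log2(TPM + 1) of each library for 13 naive and core genes (upper panel) and 13 formative, methylation, ERK and Lin28 genes (lower panel), with 2i as blue circles, 24 h as orange squares and 48 h as grey triangles, and a short bar at each group mean. Nanog has 46.9 TPM on average at 24 h and 166 TPM at 48 h, and Hmga2 stays low at 24 h with 5.84 TPM on average.

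The formative and primed genes rose nearly without exception. Of 26 tested, 25 rose, 21 by at least 2-fold, none fell, and the median change was 2.75. Pou3f1 (Oct6), a POU factor of the post-implantation epiblast, had 0.42 and 0.31 TPM in 2i and 45.1 and 46.7 TPM at 24 h (log2 change 5.10, SE 0.056, adjusted p = 1.91e-08). Fgf5, the ligand most used to mark the post-implantation epiblast, was listed at 0 and 0.04 TPM in 2i and 13 and 12.8 TPM at 24 h (log2 change 3.77, SE 0.076, adjusted p = 1.01e-07). It was higher again later, with 28.1 and 24.8 TPM at 48 h. Otx2, the homeobox factor that directs the formative state, was already present in 2i and rose by a log2 change of 1.06 (SE 0.044, adjusted p = 1.35e-06), from 14.3 and 14.7 TPM to 30.5 and 32.2 TPM.

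Pim2, a serine and threonine kinase, had the largest change on the formative list. It had 4.68 and 4.51 TPM in 2i and 223 and 223 TPM at 24 h (log2 change 5.32, SE 0.054, adjusted p = 1.91e-08), and 42.8 and 38.4 TPM at 48 h, where both libraries were below those of 24 h. Among the SOX and SALL factors of the list, Sox3 had 2.3 and 2.24 TPM in 2i and 19.6 and 20.2 TPM at 24 h, Sox11 had 1.3 and 1.25 TPM in 2i and 15.2 and 15.2 TPM at 24 h and Sall2 had 2.21 and 2.24 TPM in 2i and 23.4 and 23 TPM at 24 h. Sox3 had 21.7 and 19.4 TPM and Sall2 had 25.8 and 25 TPM at 48 h, close to their 24 h values, while Sox11 had 27.2 and 26.7 TPM. Foxd3, a forkhead factor, had 1.23 and 1.33 TPM in 2i and 16.2 and 16.7 TPM at 24 h and only 2.54 and 2.04 TPM at 48 h. Grhl2, which drives epithelial genes, had 1.29 and 1.29 TPM in 2i and 19.7 and 19.6 TPM at 24 h.

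Other genes of the formative list lagged. Hmga2, an architectural chromatin protein, had 4.72 and 4.64 TPM in 2i and 6.12 and 5.55 TPM at 24 h (log2 change 0.27, adjusted p = 0.00336), against 91.3 and 90.3 TPM at 48 h. Crabp1, a retinoic acid-binding protein, did not pass, with 9.54 and 9.16 TPM in 2i and 9.88 and 10.2 TPM at 24 h (adjusted p = 0.145), and had 84.6 and 77.8 TPM at 48 h. Cdh2 (N-cadherin) had risen to 7.72 and 7.19 TPM from 0.99 and 0.8 TPM, and stood at 38.8 and 38.8 TPM at 48 h. All 3 of these genes were higher in both 48 h libraries than in both 24 h libraries.

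The promoters of 3 genes are shown as examples of a CG-rich and of CG-poor starts. They are the 250 bases before the start in the RefSeq promoter table (GRCm38.p6), with CG dinucleotides in capitals, and the choice of this measure was made after the expression values were seen. Fgf5 rose, and its window at chr5:98253934-98254183 on the plus strand holds 24 CG pairs. Among the promoters at hand, these were chosen after their CG counts were seen. Spic and Lrrc31, which encodes a leucine-rich repeat protein, were among the 15 largest falls, and their windows at chr10:88683024-88683273 and chr3:30699844-30700093, both on the minus strand, hold 1 and 3.
Fgf5: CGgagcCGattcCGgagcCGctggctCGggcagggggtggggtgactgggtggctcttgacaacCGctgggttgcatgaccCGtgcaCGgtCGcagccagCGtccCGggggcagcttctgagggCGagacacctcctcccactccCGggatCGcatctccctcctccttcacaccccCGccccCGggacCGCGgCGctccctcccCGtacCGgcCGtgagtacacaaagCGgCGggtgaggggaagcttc
Spic: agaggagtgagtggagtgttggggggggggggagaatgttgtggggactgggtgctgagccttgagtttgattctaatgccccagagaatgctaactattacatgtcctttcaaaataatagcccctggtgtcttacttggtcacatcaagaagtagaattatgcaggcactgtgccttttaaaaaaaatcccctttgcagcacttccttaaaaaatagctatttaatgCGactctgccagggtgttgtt
Lrrc31: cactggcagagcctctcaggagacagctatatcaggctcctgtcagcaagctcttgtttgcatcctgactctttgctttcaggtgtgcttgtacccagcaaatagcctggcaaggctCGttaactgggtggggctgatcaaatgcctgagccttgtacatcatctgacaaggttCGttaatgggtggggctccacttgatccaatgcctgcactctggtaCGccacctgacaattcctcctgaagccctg
The median over the 300-base windows of all 10866 tested genes in the table, which run 250 bases before to 50 after the start, was 20 CG pairs. It was 8 over the naive genes, of which 15 matched, and 17 over the formative genes, of which 17 matched. Among the 15 largest rises, 8 had a promoter in the table, with a median of 17, and among the 15 largest falls, 9 did, with a median of 12. All genes higher by at least 2-fold had a median of 19 and those lower by at least 2-fold a median of 16. The difference does not hold gene by gene. Over the 250 bases before the start, Klf4 and Tfcp2l1, which fell, hold 32 and 16 CG pairs, and Dusp6 and Utf1, which rose, hold 16 and 14. These are descriptions of the sequences, given with no test.

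The promoter of Pim2 is shown because, of the 11 promoters in the table for the 15 largest rises, it alone held any of the 7 motifs searched. Of the 11 promoters for the 15 largest falls 1, that of Elf3, held the octamer too, the same share of 9.09%. The Pim2 window at chrX:7878056-7878305 is on the plus strand of GRCm38.p6. It holds the octamer ATGCAAAT at 202 and 123 bases before the start, and the Tcf and Lef motif CTTTGAT at 65 bases before it. POU factors such as the products of Pou5f1 and Pou3f1 bind the octamer. The matches are in capitals, read on either strand, and they do not overlap.
Pim2: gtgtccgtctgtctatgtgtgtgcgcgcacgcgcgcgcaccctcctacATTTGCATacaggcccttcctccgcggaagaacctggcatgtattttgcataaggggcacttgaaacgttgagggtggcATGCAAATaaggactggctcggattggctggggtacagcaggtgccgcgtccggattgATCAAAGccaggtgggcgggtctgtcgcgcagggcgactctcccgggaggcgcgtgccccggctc
Of the 13876 promoters of the genes tested, 1.34% held the octamer and 5.79% held CTTTGAT or CTTTGAA. Of the 1145 promoters of genes higher by at least 2-fold, 2.27% held the octamer and 6.81% the Tcf and Lef motif, and of the 1518 promoters of genes lower by at least 2-fold, 1.19% and 6.26% did. The other motifs searched were AAGGTCA for Esrrb, CCGGAAGT for Ets factors, the E-box CACGTG, TTCCNGGAA for Stat factors and GGGTGTGG for Klf factors, and none of the 11 promoters of the largest rises held one. They were held by 3.39%, 7.67%, 9.87%, 1.19% and 3.81% of all promoters. A match in a window is a description of these letters, not of binding.

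Genes that report ERK activity were among the strongest changes of the whole table. Of 22 genes on this list 21 were tested, and 18 rose, 15 by at least 2-fold, 2 fell and 1 did not pass, with a median change of 1.47. Dusp6, a phosphatase that removes activating phosphates from ERK, had the largest log2 rise of all genes named by the rule. It had 0.41 and 0.32 TPM in 2i and 80.2 and 77.1 TPM at 24 h (log2 change 5.87, SE 0.073, adjusted p = 2.47e-08), and 262 and 303 TPM at 48 h, higher again. Spry4, a Sprouty inhibitor of the pathway, had 0.02 and 0.03 TPM in 2i and 22.5 and 21.3 TPM at 24 h (log2 change 4.48, adjusted p = 7.07e-08), and Spry2 had 17 and 17.8 TPM in 2i and 105 and 95.6 TPM at 24 h. In 2i the levels of Dusp6 and Spry4 were under 1 TPM in both libraries.

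The ETS factors Etv1, Etv4 and Etv5, which carry FGF and ERK signals to the genome, differed in their starting levels. Etv4 had 1.79 and 2.47 TPM in 2i and 67.5 and 66 TPM at 24 h (log2 change 4.45, SE 0.1, adjusted p = 3.35e-07). Etv1 had 0.68 and 0.86 TPM in 2i and 25.4 and 25.9 TPM at 24 h. Etv5 was already abundant, with 97.3 and 97.6 TPM in 2i and 145 and 146 TPM at 24 h (log2 change 0.57, adjusted p = 2.75e-06). Of the immediate early genes, Egr1 had 0.1 and 0.14 TPM in 2i and 4.12 and 3.28 TPM at 24 h, Ier2 had 50.8 and 52.4 TPM in 2i and 144 and 145 TPM at 24 h, and Fos did not pass at 0.62 and 0.63 TPM in 2i and 0.68 and 0.68 TPM at 24 h. Ccnd1, the D-type cyclin, had 27.5 and 28.8 TPM in 2i and 96 and 96.7 TPM at 24 h. Dusp14, another phosphatase, and Ier3 were the exceptions that fell, Dusp14 with 26.4 and 25.6 TPM in 2i and 7.78 and 7.35 TPM at 24 h and Ier3 with 12.5 and 13.6 TPM in 2i and 4.01 and 3.92 TPM at 24 h. Spry1, Il17rd and Phlda1 were higher still at 48 h, where Il17rd, a membrane antagonist of FGF signals, had 111 and 114 TPM after 14.1 and 13.1 TPM at 24 h.

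The enzymes of de novo DNA methylation rose together and were higher at 24 h than in either other group. Dnmt3b had 12.4 and 14.3 TPM in 2i and 356 and 354 TPM at 24 h (log2 change 4.63, SE 0.06, adjusted p = 3.48e-08), and 143 and 138 TPM at 48 h. Dnmt3a had 61.6 and 63.2 TPM in 2i and 454 and 446 TPM at 24 h (log2 change 2.83, SE 0.033, adjusted p = 2.16e-08), and 127 and 133 TPM at 48 h. Dnmt3l, their cofactor without enzyme activity, had 37.6 and 42.1 TPM in 2i and 254 and 250.5 TPM at 24 h (log2 change 2.63, SE 0.063, adjusted p = 2.11e-07), and 57.6 and 52.6 TPM at 48 h. For each of these genes both 24 h libraries lay above all 4 other libraries.

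The maintenance and demethylation genes moved less. Of 12 genes on the methylation list 9 rose and 3 fell, and Prdm14 is the member that passed the minimum only through 2i. Dnmt1, the maintenance enzyme, had 87.1 and 94 TPM in 2i and 108 and 109 TPM at 24 h (log2 change 0.26, adjusted p = 0.000901). Uhrf1, which brings Dnmt1 to replicating DNA, rose by a log2 change of 0.15 (adjusted p = 0.00909). The TET enzymes, which oxidise methylcytosine, diverged. Tet1 had 62.8 and 60.7 TPM in 2i and 102 and 99.98 TPM at 24 h, a rise, while Tet2 had 75.8 and 74.2 TPM in 2i and 24.5 and 23.2 TPM at 24 h, a log2 change of -1.61 (SE 0.045, adjusted p = 3.06e-07). Tet3 passed the threshold too but was low, at 5.28 and 5.46 TPM. Mbd3, a subunit of the NuRD complex, had 109 and 111 TPM in 2i and 273 and 270.1 TPM at 24 h.

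Wnt target genes went both ways, in shares close to those of all genes tested. Of 21 genes on the list 18 were tested, and 6 rose (33.3%), 7 fell (38.9%) and 5 did not pass. Of all genes tested, 36.2% rose and 39.8% fell. The median change of the list was -0.11, against -0.04 over all genes. Cdx1, a caudal homeobox gene and direct target of β-catenin, had the largest fall of all genes named by the rule, with 52.6 and 54 TPM in 2i and 0.5 and 0.57 TPM at 24 h (log2 change -5.14, SE 0.069, adjusted p = 3.23e-08). Axin2, the feedback inhibitor that serves as the usual readout of the pathway, had 21.6 and 23.3 TPM in 2i and 5.87 and 5.62 TPM at 24 h (log2 change -1.80, SE 0.06, adjusted p = 5.52e-07). Rnf43, which removes Wnt receptors, had 2.31 and 2.49 TPM in 2i and 0.11 and 0.14 TPM at 24 h, and Sp5, a transcription factor target, had 1.39 and 1.28 TPM in 2i and 0.1 and 0.1 TPM at 24 h. Cdx1, Rnf43 and Sp5 were the members that passed the minimum only through 2i, and they had to differ. With the first or the second 2i library left out, or with a minimum of 5 TPM, 4 members fell.

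The members that rose include genes that other lists hold too. Lef1, one of the factors through which β-catenin acts, had 5.33 and 5.12 TPM in 2i and 48.1 and 46.9 TPM at 24 h (log2 change 2.96, SE 0.044, adjusted p = 4.48e-08), and 16.2 and 15.8 TPM at 48 h. Sall1, also on the core list, and Ccnd1, also on the ERK list, rose as well, and so did Tcf7, from 33.3 and 35.8 TPM to 47.5 and 46.5 TPM. Tcf7l1 (Tcf3), the repressor of the naive network that β-catenin relieves, had 21.3 and 22.3 TPM in 2i and 44 and 43 TPM at 24 h, a log2 change of 0.97 (adjusted p = 6.87e-06). Ctnnb1, which encodes β-catenin itself, had 366 and 368 TPM in 2i and 398 and 401 TPM at 24 h, a log2 change of 0.12 (SE 0.021, adjusted p = 0.00169). Cdx2 and T (brachyury), targets of the pathway in the primitive streak, had 0.59 and 0.57 TPM and 0.34 and 0.21 TPM at 24 h, and T was lower than its 1.75 and 1.56 TPM in 2i.

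The LIF and STAT3 list was mixed as well, with 4 of 14 genes higher, 6 lower and 4 that did not pass, out of 16 on the list. Il6st (gp130), the signalling receptor for LIF, had 24 and 23.6 TPM in 2i and 8.85 and 8.92 TPM at 24 h (log2 change -1.32, adjusted p = 6.81e-07). Stat3 had 12.2 and 13.5 TPM in 2i and 4.85 and 3.86 TPM at 24 h. Socs3, the feedback inhibitor of STAT3, did not pass, with 2.11 and 3.33 TPM in 2i and 3.16 and 3.24 TPM at 24 h (log2 change 0.19, SE 0.16, adjusted p = 0.303), and its 2i libraries spanned both 24 h values. Without the first 2i library its change was -0.04 (adjusted p = 0.733), and without the second it was 0.43 (adjusted p = 0.0148). Gadd45g, a stress-inducible gene, rose to 63.1 and 62.8 TPM from 4.34 and 4.03 TPM and was back at 3.17 and 2.97 TPM at 48 h.

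In the Nodal and activin pathway, 9 of 18 tested genes rose and 6 fell, out of 19 on the list. Nodal, the ligand, had 63.2 and 63.3 TPM in 2i and 47.1 and 46.5 TPM at 24 h (log2 change -0.43, SE 0.041, adjusted p = 7.08e-05). Pcsk6 and Furin, the convertases that cut its precursor, were lower by log2 changes of -2.26 and -1.46. Foxh1, the DNA-binding partner of the activated SMADs, had 37.1 and 37.9 TPM in 2i and 78.8 and 80.4 TPM at 24 h. Smad7, the inhibitory SMAD, had 11 and 10.6 TPM in 2i and 28.3 and 26 TPM at 24 h. The inhibitors Lefty1 and Lefty2 went opposite ways, Lefty1 from 102 and 106 TPM to 229.8 and 225 TPM and Lefty2 from 109.9 and 109.6 TPM to 51.9 and 54.9 TPM. They are close paralogs, and how reads were shared between them is not known. Of 13 tested BMP ligands and targets, out of 14, 5 rose and 6 fell, and Msx2 and Id4 passed the minimum only through 2i. Bmp7, a ligand, had 8.4 and 8.64 TPM in 2i and 0.62 and 0.45 TPM at 24 h, while Id2 and Id3, inhibitors of DNA binding that BMP induces, rose to 9.26 and 9.11 TPM and 5.82 and 5.49 TPM from 2.96 and 3.18 TPM and 1.91 and 2.65 TPM.

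Markers of later lineages were not all low at 24 h. Of 11 tested primitive streak and mesoderm genes, out of 14 on the list, 3 rose and 3 fell, and their summed level was 13.6 and 13.3 TPM in 2i and 10.9 and 10.4 TPM at 24 h. Mesp1 and Mixl1, streak genes, stayed below 1 TPM in every library and were not tested. Gsc, a homeobox gene of the organizer, passed the minimum only through 2i and had to differ, with 1.1 and 1.22 TPM in 2i and 0.12 and 0.14 TPM at 24 h. Eomes, a T-box gene of streak and trophoblast, had 5.4 and 5.48 TPM in 2i and 1.74 and 1.84 TPM at 24 h. Fgf8, a ligand made in the streak, was the only streak gene with a rise of 2-fold, at 0.42 and 0.45 TPM in 2i and 3.22 and 3.28 TPM at 24 h. Without the first 24 h library 1 streak gene rose and no trophoblast gene did. Of 8 tested endoderm genes, out of 14, 2 rose and 4 fell, and Gata6, Sox17 and Foxa2, the defining factors, did not reach 1 TPM in any library. The summed level of the 8 genes was 166 and 168 TPM in 2i and 84 and 86 TPM at 24 h. Of 11 tested trophoblast genes, out of 13, 1 rose and 6 fell. Their summed level was 96.7 and 102 TPM in 2i and 40.5 and 39.3 TPM at 24 h. Tfap2c, an AP-2 factor of trophoblast and germ cells that naive ES cells also express, had 33 and 35.5 TPM in 2i and 2.35 and 2.21 TPM at 24 h (log2 change -3.43, SE 0.065, adjusted p = 7.95e-08), and 17.8 and 16.3 TPM at 48 h.

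Some neural genes rose, while the summed levels of the other lineage lists above fell. Sox1, a marker of early neuroectoderm, had 0.44 and 0.45 TPM in 2i and 19.7 and 19.2 TPM at 24 h (log2 change 3.82, SE 0.068, adjusted p = 6.91e-08). Pax6, a paired-box factor of neural progenitors, had 0.61 and 0.61 TPM in 2i and 14.4 and 14.3 TPM at 24 h (log2 change 3.25, SE 0.057, adjusted p = 6.89e-08). Of the 9 tested neuroectoderm genes, out of 14, 5 rose and 2 fell. Hesx1, a homeobox gene of the anterior neural plate, passed the minimum only through 2i and had to differ, with 1.65 and 1.61 TPM in 2i and 0.71 and 0.65 TPM at 24 h. The summed level of the 9 genes was 27.8 and 30.3 TPM in 2i against 87.2 TPM in each library at 24 h. Nes, which encodes an intermediate filament of neural progenitors, did not pass, with 10.1 and 10.9 TPM in 2i and 10.1 and 10.2 TPM at 24 h, and Hes5, Neurog2 and Six3 stayed below 1 TPM in every library. With either 2i library left out, 1 neuroectoderm gene fell. The part of any differentiated cells in the other results was not tested.

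Collagen and actin markers of fibroblasts, which could come from a feeder layer, were at or near 0 in 2i and at 24 h. Col1a1, Col1a2, Col3a1 and Acta2 were at most 0.53 TPM in any 2i or 24 h library, and Lum, Postn and S100a4 reached at most 0.17 TPM in any library. At 48 h Acta2 had 22.4 and 23.1 TPM and Col1a2 had 4.79 and 4.32 TPM. Col3a1 had 3.16 and 2.41 TPM and Col1a1 had 1.91 and 1.97 TPM at 48 h. Of the 8 tested genes out of 11 on this list, Vim, Thy1, Dcn and Col1a1 rose, 3 by at least 2-fold, and Fn1 fell. Dcn had 0 and 0.05 TPM in 2i and 3.22 and 3.47 TPM at 24 h. Without Fn1 and Vim, which ES cells also express, the summed level of the list was 4.01 and 3.09 TPM in 2i and 11.4 and 13.0 TPM at 24 h.

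Adhesion genes went both ways. Of 20 genes 8 rose and 10 fell, beside shares of 36.2% and 39.8% of all genes tested. Cdh1 (E-cadherin), the main cadherin of ES cells, had 209 and 217 TPM in 2i and 248 and 249 TPM at 24 h (log2 change 0.22, adjusted p = 0.000642). Epcam, an epithelial adhesion molecule, had 70.1 and 71.2 TPM in 2i and 179.6 and 186 TPM at 24 h, and Cdh3 (P-cadherin) had 1.71 and 1.8 TPM in 2i and 6.3 and 5.99 TPM at 24 h. The tight junction claudins Cldn3 and Cldn4 fell, Cldn4 from 47.5 and 49.2 TPM to 15.9 and 16.3 TPM, and Cldn4 was back at 48 and 50.1 TPM at 48 h. Dsp, the desmosome protein desmoplakin, had 6.12 and 6.31 TPM in 2i and 2.07 and 2.12 TPM at 24 h. Gja1 (connexin 43), a gap junction gene and one of the 15 largest rises, had 7.51 and 8.22 TPM in 2i and 167 and 169 TPM at 24 h (log2 change 4.26, SE 0.044, adjusted p = 1.91e-08).

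Germline and meiosis genes, several of which are expressed in naive ES cells, were lower for 12 of 23 tested and higher for 7, out of 27 on the list. Nanos3, a germ cell RNA-binding protein, had 16.6 and 15.2 TPM in 2i and 1.49 and 1.32 TPM at 24 h, and Stra8, a gate to meiosis, had 124 and 127 TPM in 2i and 31.8 and 31.9 TPM at 24 h. Dazl, an RNA-binding protein of germ cells, had 41.6 and 35.7 TPM in 2i and 11.8 and 11.8 TPM at 24 h. Hormad1 and Mael, in contrast, were higher, Hormad1 with 24.9 and 23.3 TPM in 2i and 31.5 and 32.5 TPM at 24 h. Genes of the 2-cell stage, which flicker on in rare ES cells, moved by less than 2-fold throughout, with 3 of 17 tested higher and 7 lower, out of 18 on the list. Tdpoz4 passed the minimum only through 24 h and had to differ. Without the first 2i library 2 fell, without the first 24 h library 4, without the second 24 h library 1, and with no minimum or one of 5 TPM 3. Zscan4f had 66.8 and 58.5 TPM in 2i and 49.5 and 47.6 TPM at 24 h. The Zscan4 and Usp17l genes are near-identical copies, so their separate values are uncertain.

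Transcripts of many genes of glucose transport and glycolysis were lower after 24 h. Of 24 gene IDs tested, 17 fell, 11 by at least 2-fold, 3 rose and 4 did not pass, and the median change was -0.70. Slc2a3 (GLUT3), a high-affinity glucose transporter, had 936 and 919 TPM in 2i and 101 and 92.2 TPM at 24 h (log2 change -3.25, SE 0.046, adjusted p = 3.98e-08). At 48 h it was back at 666 and 642 TPM. Slc2a3 lies at chr6:122727809-122802363 in GRCm38.p6, beside Nanog at chr6:122707489-122714633. Slc2a1 (GLUT1), the other main transporter, had 122 and 131 TPM in 2i and 94.5 and 94.2 TPM at 24 h, and then 457 and 442 TPM at 48 h. At the first enzyme step Hk1 fell and Hk2 rose, Hk1 with 46.3 and 50.03 TPM in 2i and 11.7 and 11.2 TPM at 24 h and Hk2 with 76.8 and 84.9 TPM in 2i and 95.4 and 97.5 TPM at 24 h.

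The fall was not spread evenly along the pathway. Pfkp, the platelet form of phosphofructokinase, had 331 and 354 TPM in 2i and 49.8 and 52.6 TPM at 24 h (log2 change -2.72, SE 0.052, adjusted p = 8.31e-08), and Pfkl, the liver form, had 196 and 204 TPM in 2i and 93.3 and 94.1 TPM at 24 h. Aldoc, a minor aldolase, had 51.4 and 53.9 TPM in 2i and 5.9 and 5.93 TPM at 24 h, and Aldoa, the main one, had 2255 and 2383 TPM in 2i and 1169 and 1193 TPM at 24 h. Below them, Tpi1 (triose phosphate isomerase) had 900.5 and 979 TPM in 2i and 303 and 323 TPM at 24 h and Pgk1 (phosphoglycerate kinase) had 1457 and 1494 TPM in 2i and 432 and 441 TPM at 24 h. Gapdh did not pass, with 3616 and 3829 TPM in 2i and 3679 and 3619 TPM at 24 h (adjusted p = 0.46), and neither did Pgam1, with 705 and 729 TPM in 2i and 699 and 696 TPM at 24 h. Eno1 (enolase) and Pkm (pyruvate kinase) fell by under 2-fold, with log2 changes of -0.28 and -0.16. Ldha, which turns pyruvate into lactate, had 1801 and 1894 TPM in 2i and 764 and 774 TPM at 24 h.

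**Figure D3:**
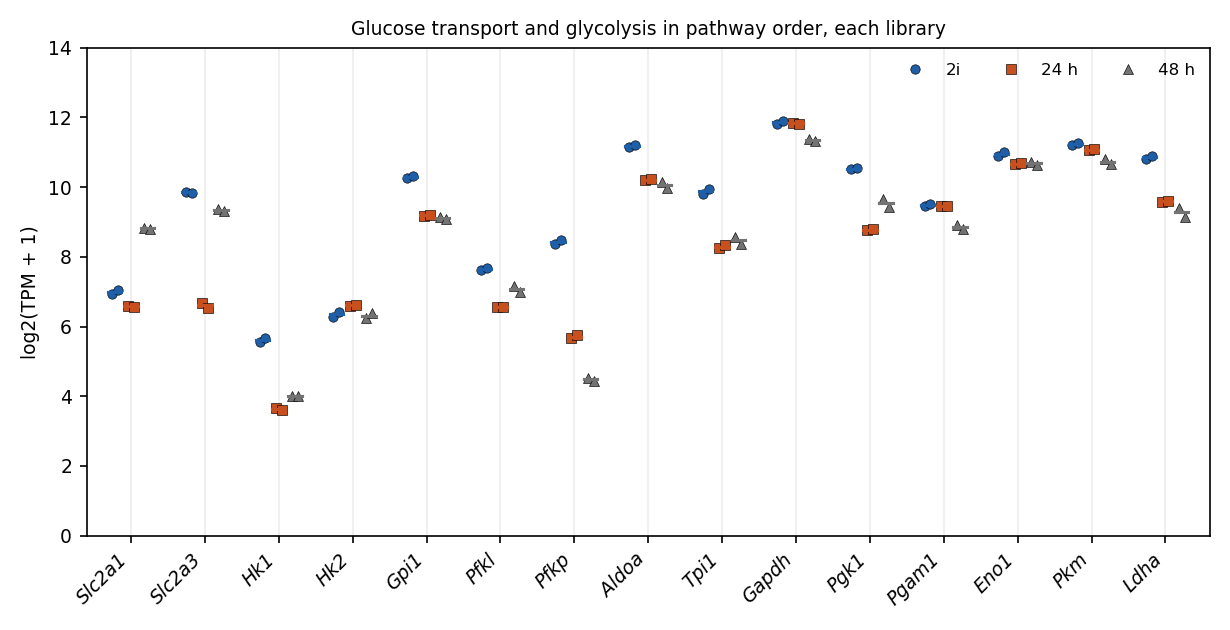
Log2(TPM + 1) of each library for 15 genes of glucose transport and glycolysis, in pathway order from left to right, with 2i as blue circles, 24 h as orange squares and 48 h as grey triangles, and a short bar at each group mean. Slc2a3, Hk1, Pfkp, Tpi1, Pgk1 and Ldha lie lower at 24 h than in 2i, while the 2i and 24 h libraries of Gapdh and Pgam1 lie close together.

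Some genes often used as references were not steady over this day. Of 14 such genes, 7 rose, 5 fell and 2 did not pass. B2m, the light chain of MHC class I, had 38.1 and 34.4 TPM in 2i and 8.99 and 8.69 TPM at 24 h (log2 change -1.92, SE 0.066, adjusted p = 6.35e-07), and Pgk1 is described above. Actb (β-actin) had 1075 and 1069.8 TPM in 2i and 2084 and 2091 TPM at 24 h (log2 change 0.96, SE 0.021, adjusted p = 1.33e-07). Gapdh, as above, did not pass. Rplp0, Ywhaz, Ppia and Gusb passed with log2 changes of 0.08, 0.10, 0.15 and 0.16. Without the second 24 h library 4 of the list rose.

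Myc and Mycn, growth regulators of the Myc family, rose, and they alone of the 10 genes on their list rose by at least 2-fold. The list also holds regulators of Myc, and its median change was 0.50. Myc itself, which is also on the ERK list, had the second largest log2 rise of the genes named by the rule, with 0.7 and 0.65 TPM in 2i and 69.8 and 69 TPM at 24 h (log2 change 5.39, SE 0.052, adjusted p = 1.91e-08), and 32.4 and 35 TPM at 48 h. Mycn, the family member most expressed in 2i, had 13.8 and 14.6 TPM in 2i and 61.7 and 62.2 TPM at 24 h (log2 change 2.05, adjusted p = 1.26e-07). Mga, which represses targets of Myc, had 132 and 144 TPM in 2i and 87.1 and 96.4 TPM at 24 h, a fall. Of the 10 genes of this list 8 rose and 2 fell, or 1 without the second 24 h library.

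Cell cycle genes controlled by E2F moved upward by small steps. Of 28 genes 22 rose and 6 fell, the median change was 0.45, and Ccne1 alone passed 2-fold. Ccne1 (cyclin E1), which starts S phase, had 40.5 and 43.1 TPM in 2i and 161 and 162 TPM at 24 h (log2 change 1.93, SE 0.036, adjusted p = 7.45e-08). Cdt1 and Cdc6, which load the replicative helicase, had 89.5 and 91.3 TPM in 2i and 158 and 163 TPM at 24 h and 36.6 and 40.6 TPM in 2i and 67.7 and 66.4 TPM at 24 h. Mki67, the proliferation marker, fell, with 81.8 and 82 TPM in 2i and 60.4 and 59.9 TPM at 24 h. Cdkn1a (p21), a cyclin-dependent kinase inhibitor and target of p53, had 133 and 132 TPM in 2i and 57.5 and 57.4 TPM at 24 h (log2 change -1.19, adjusted p = 3.47e-07), a fall, while Trp53, which encodes p53, had 99.6 and 101 TPM in 2i and 240.2 and 236 TPM at 24 h. Of 17 p53 and apoptosis genes 11 rose and 6 fell, and Bcl2l11 (Bim) and Pmaip1 (Noxa), which promote apoptosis, were among those that rose, Pmaip1 with 28.7 and 26.6 TPM in 2i and 69 and 70.3 TPM at 24 h.

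Transcripts of amino acid supply went both ways within their list. Of 21 genes on the list of ATF4, the transcription factor of the amino acid response, and its program, 14 rose and 4 fell. Atf4 itself is counted among those that rose. Slc7a3, a transporter of cationic amino acids, had 32.7 and 34.6 TPM in 2i and 182 and 182 TPM at 24 h (log2 change 2.41, SE 0.034, adjusted p = 3.55e-08), and Atf5 had 18.2 and 18.9 TPM in 2i and 72.3 and 71.9 TPM at 24 h. Asns (asparagine synthetase) went the other way, with 794 and 795 TPM in 2i and 220.4 and 223 TPM at 24 h (log2 change -1.84, SE 0.023, adjusted p = 2.47e-08). Of 23 cholesterol synthesis genes 11 rose and 8 fell, with a median change of 0.08. Ebp, a late enzyme of the pathway, had 62.3 and 67.4 TPM in 2i and 20.8 and 23.1 TPM at 24 h.

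Polycomb genes also split, with 9 of 18 higher, 5 lower and 4 that did not pass. Ezh2, the methyltransferase of PRC2, did not pass, with 169 and 172 TPM in 2i and 175 and 176 TPM at 24 h, while Ezh1, its relative, fell from 31 and 32.6 TPM to 10.3 and 8.85 TPM. Mtf2, a PRC2 cofactor, had 341 and 321 TPM in 2i and 132 and 131 TPM at 24 h, and Suz12, a core subunit, had 173 and 166 TPM in 2i and 104 and 106 TPM at 24 h. Of the 8 genes around Lin28 and Hmga, Lin28b had 8.44 and 8.57 TPM in 2i and 24.9 and 25.1 TPM at 24 h, Hmga1 had 492 and 514 TPM in 2i and 1196 and 1207 TPM at 24 h, and Igf2bp2, an mRNA-binding protein, was the gene that fell, with 61.4 and 61.4 TPM in 2i and 29.9 and 30.5 TPM at 24 h, and 2 fell without the second 24 h library. Interferon response genes were 2 higher, 3 lower and 2 not passing of 7 tested, out of 11 on the list, with 1 higher when the first 2i, the first 24 h or either 48 h library was left out. Ifitm1, a membrane protein, fell from 151 and 148 TPM to 42.7 and 42.1 TPM.

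Of the 13 genes encoded by the mitochondrial genome 6 rose, 3 fell and 4 did not pass, beside shares of 36.2% and 39.8% of all genes tested. Their median change was -0.23, and their summed level was 38229 and 36033 TPM in 2i and 31798 and 31213 TPM at 24 h. mt-Nd1, a subunit of complex I, had 3513 and 3441 TPM in 2i and 4974 and 4935 TPM at 24 h, and mt-Co1, a subunit of complex IV, had 15098 and 14164 TPM in 2i and 7563 and 7386 TPM at 24 h. The members that did not pass had replicates far apart, such as mt-Nd6 with 121 and 25.6 TPM in the 24 h libraries and mt-Co3 with 964 and 450.3 TPM in those of 2i. Without the second 24 h library 5 of the 13 fell.

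**Figure D4:**
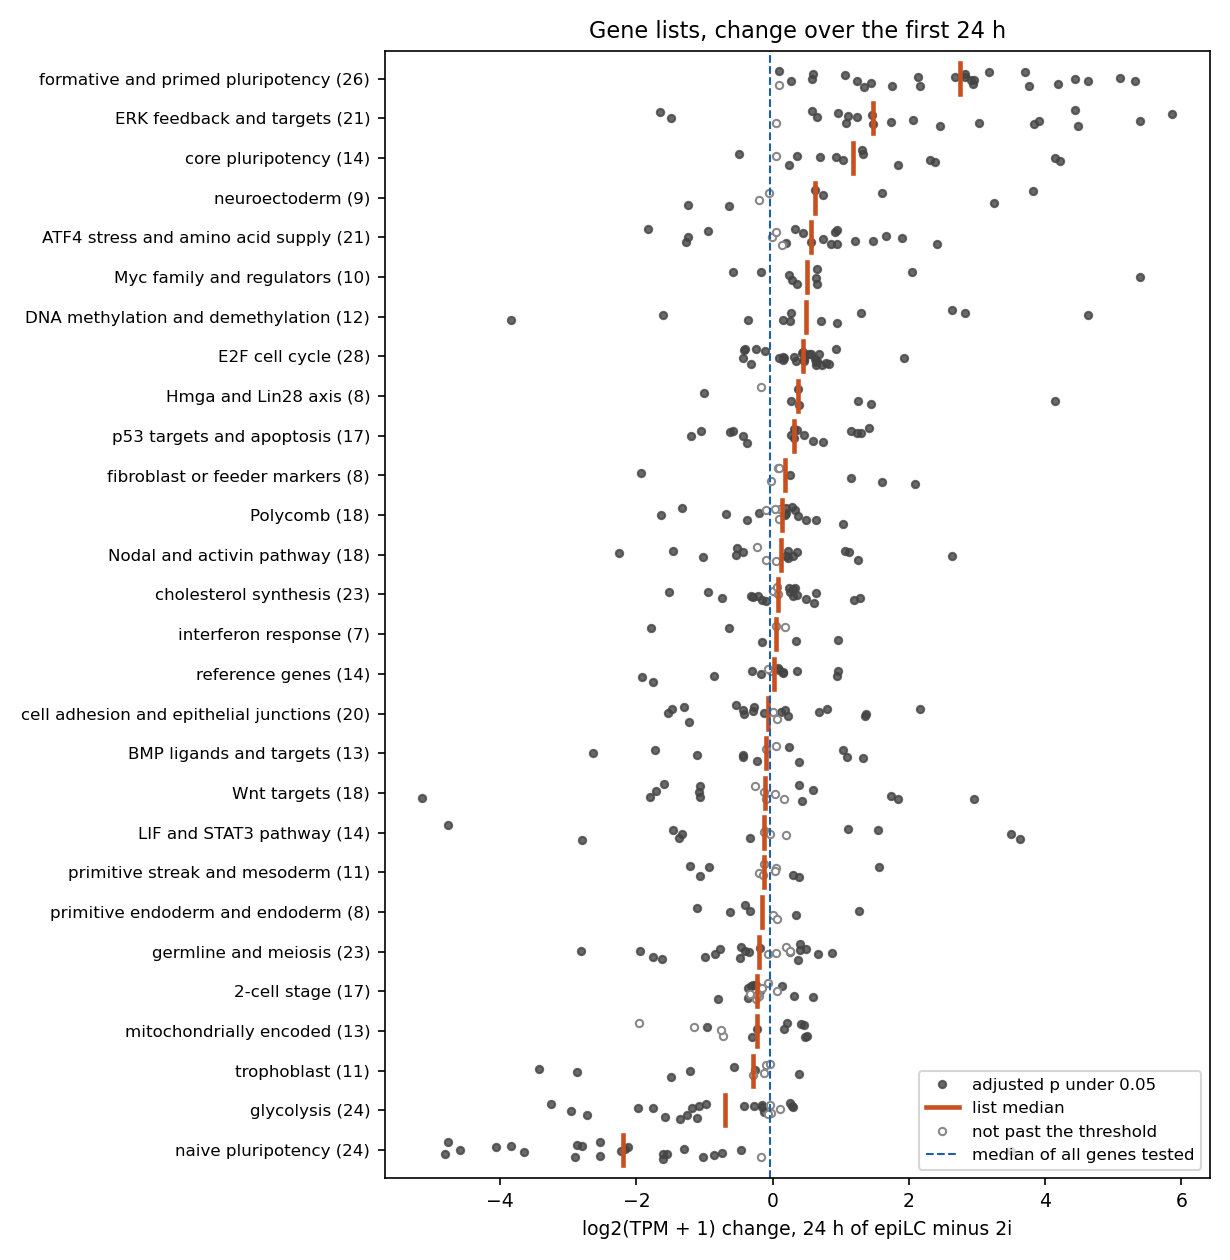
Log2(TPM + 1) change from 2i to 24 h (x axis) of each tested member of 28 gene lists (rows, with the number tested), filled where the adjusted p is under 0.05 and open where it is not, with an orange bar at each list's median and a dashed line at the median of all genes tested, -0.04. The formative list has a median of 2.75 and the naive list one of -2.20, while 18 Wnt targets spread to both sides.

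Among the 15 largest log2 rises, several genes belong to none of these lists. Wt1, a zinc finger factor of kidney and gonad, had 0.28 and 0.23 TPM in 2i and 36.6 and 36.9 TPM at 24 h (log2 change 4.91, SE 0.052, adjusted p = 1.91e-08). Vrtn, a DNA-binding protein tied to vertebral number in the pig, had 0.88 and 1.04 TPM in 2i and 50.2 and 49.8 TPM at 24 h and 16.6 and 14.5 TPM at 48 h. Car4, a carbonic anhydrase, had 0.45 and 0.26 TPM in 2i and 33.3 and 33.5 TPM at 24 h, and was far higher at 48 h, at 218 and 231 TPM. Crmp1, which acts in axon guidance, had 0.87 and 1.18 TPM in 2i and 45.2 and 46.1 TPM at 24 h, and Pcdh1, a protocadherin, had 0.68 and 0.88 TPM in 2i and 32 and 32.1 TPM at 24 h. Fgf15, on the formative list, had 0.36 and 0.2 TPM in 2i and 22.6 and 22 TPM at 24 h.

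The 15 largest falls held, beside the naive genes, an imprinted gene and genes of epithelia and metabolism. Plagl1 (Zac1), an imprinted zinc finger factor, had 98.7 and 95 TPM in 2i and 1.81 and 2.07 TPM at 24 h (log2 change -5.06, SE 0.077, adjusted p = 4.93e-08). Ndrg1, a gene induced by hypoxia, had 63.7 and 68.2 TPM in 2i and 0.95 and 1.15 TPM at 24 h (log2 change -5.03, SE 0.085, adjusted p = 6.29e-08). Anxa2, a calcium-dependent membrane-binding protein, had 96 and 106 TPM in 2i and 2.32 and 2.01 TPM at 24 h. Lrrc31 had 45.5 and 44.8 TPM in 2i and 0.3 and 0.57 TPM at 24 h, Crxos, a homeobox gene, had 67 and 64.5 TPM in 2i and 1.35 and 1.74 TPM at 24 h, and Elf3, an epithelial ETS factor, had 146 and 147 TPM in 2i and 6.79 and 7.01 TPM at 24 h. Aqp3, a channel for water and glycerol, had 71 and 71.7 TPM in 2i and 2.39 and 3.12 TPM at 24 h. Dmgdh, a mitochondrial enzyme of choline breakdown, fell from 16.6 and 17 TPM to 0.18 and 0.17 TPM. It passed the minimum only through 2i and had to differ.

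In TPM itself, the shifts were carried by abundant transcripts. The largest gains were in Ptma (prothymosin α), Npm1 (nucleophosmin, a nucleolar protein), the chaperones Hspa8 and Hsp90ab1, and mt-Nd1. Ptma had 3534 and 3782 TPM in 2i and 6395 and 6547 TPM at 24 h, and Npm1 had 4313 and 4287 TPM in 2i and 6202 and 6158 TPM at 24 h. Hspa8 had 2724 and 2952 TPM in 2i and 4646 and 4604 TPM at 24 h, and Hsp90ab1 had 3105 and 3134 TPM in 2i and 4798 and 4785 TPM at 24 h. The largest losses were in mt-Co1, Eef1a1, Dppa5a, mt-Atp8 and Aldoa. Eef1a1, a translation elongation factor, had 14659 and 14499 TPM in 2i and 11402 and 11169.5 TPM at 24 h (log2 change -0.37, adjusted p = 4.84e-06). mt-Atp8 had 7981 and 7549 TPM in 2i and 6750.2 and 5891 TPM at 24 h, and its call was lost without the first 2i library (log2 change -0.26, adjusted p = 0.0954).

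The 24 h libraries did not lie on a line between those of 2i and those of 48 h. The median absolute difference in log2(TPM + 1) between a 2i and a 48 h library was 0.431 to 0.445, no larger than that between a 2i and a 24 h library, and it was 0.401 to 0.414 between a 24 h and a 48 h library. A contrast of 24 h against the mean of 2i and 48 h asked which genes stood off their midpoint, here called the line. A gene that was already at its 48 h level by 24 h can be called too. Crmp1, at 45.2 and 46.1 TPM at 24 h and 43.8 and 47.7 TPM at 48 h, stood 2.26 above the line. The contrast called 12709 genes (76.7%), with 5239 genes above the line (31.6%) and 7470 below it (45.1%), or 6101 and 6634 with median-of-ratios scaling. With the values as deposited, 594 (3.59%) stood above it and 1280 (7.73%) below it by at least 2-fold. For 3615 genes (21.8%) both 24 h libraries lay above all 4 others with an adjusted p under the threshold, and for 5181 (31.3%) both lay below. The contrast shares the 24 h and 2i libraries with the comparison above, so it is no separate evidence for its calls.

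The highest genes above the line were Pim2, Gadd45g, Cphx3, Enox1 and Myc. Gadd45g stood 3.80 above on the log2 scale (SE 0.049, adjusted p = 1.05e-07) and Enox1, a cell surface oxidase, stood 3.23 above (SE 0.067, adjusted p = 2.33e-07). Enox1 had 0.97 and 0.91 TPM in 2i and 19.3 and 19.6 TPM at 24 h and 1.58 and 1.35 TPM at 48 h, and both other groups were low. Cphx3, a homeobox gene with near copies, had 2.23 and 0.61 TPM in 2i and 16.3 and 16.9 TPM at 24 h, with 2i replicates far apart, and 0.26 and 0 TPM at 48 h. Pim2, Myc and Dnmt3b, described above, likewise had their highest values at 24 h. Of the 14 core genes, 11 had both 24 h libraries above all others, as did 8 of the 12 methylation genes, 12 of the 26 formative genes and 19 of the 28 E2F genes. The share over all genes tested was 21.8%.

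The lowest genes below the line were Anxa2, Plagl1, Gadd45b, Pgk1-rs7 and Ahnak. Anxa2 stood -3.91 on the log2 scale from the line (SE 0.064, adjusted p = 1.43e-07), with 21.8 and 20.3 TPM at 48 h after 2.32 and 2.01 TPM at 24 h. Plagl1 had 18.5 and 16 TPM at 48 h. Gadd45b, a stress-inducible relative of Gadd45g, moved opposite to it, with 54.9 and 54.8 TPM in 2i and 3.15 and 3.09 TPM at 24 h and 32.2 and 33.3 TPM at 48 h. Ahnak, a giant scaffold protein, had 30.8 and 32.1 TPM in 2i and 1.98 and 1.59 TPM at 24 h and 14.7 and 17.5 TPM at 48 h. Pgk1-rs7, annotated as a pseudogene, whose name passes the rule and which may share reads with Pgk1, was listed at 0 in both 24 h libraries, after 9.66 and 8.24 TPM in 2i and before 8.19 and 7.93 TPM at 48 h.

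Some naive and glycolytic genes also had their lowest values at 24 h. Nanog was at 175 and 157 TPM at 48 h, above both of its 24 h values and below both of its 2i values. Esrrb had 26.9 and 29.8 TPM at 48 h, and Klf5, also a Krüppel-like factor, had 28.2 and 27.1 TPM in 2i and 13.2 and 13.1 TPM at 24 h and 21.2 and 22.4 TPM at 48 h. Of the 24 naive genes 5 had both 24 h libraries below all others and none had both above, and of the 24 glycolysis IDs 10 had both below and 1 had both above. Over all genes tested, 31.3% had both below and 21.8% had both above. The naive list was thus not lowest at 24 h more often than genes in general, and the difference was not tested. Its median change from 24 to 48 h was -0.92. Of the 11 trophoblast genes 8 had both 24 h libraries below all others, and B2m, with 47.3 and 52 TPM at 48 h, did as well.

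**Figure D5:**
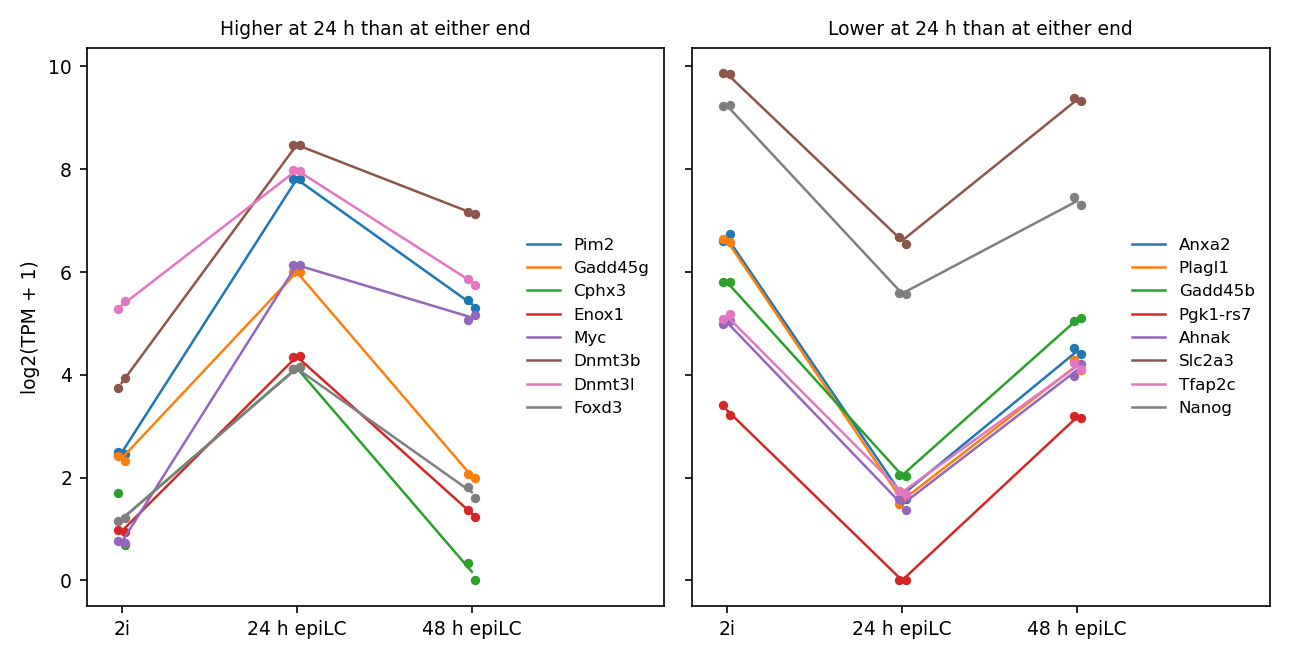
Log2(TPM + 1) of each library (points, with lines through the group means) in 2i, at 24 h and at 48 h for 8 genes higher at 24 h than at either end (left) and 8 lower (right). The 5 genes of each panel named by the rule come first in its key, and the others were chosen after their values were seen; Pim2 goes from 4.60 TPM on average to 223 and back to 40.6 TPM, and Slc2a3 from 927 to 96.8 and 654 TPM.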

How the data were processed

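Gene expression was measured by RNA-seq. TRIzol extraction, DNase and a TruSeq RNA kit were used, per the labels' protocols. The authors deposited TPM values per gene. Per the submitters' processing notes, bcl2fastq 2.18, STAR, RSEM and Bowtie2 were used with the mm10 build, with no other version given. The other 3 tables of the series were not used here. A few abundant transcripts lower the TPM of all other genes, so scaling was varied.

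Genes at 1 TPM or more in 2 libraries of the 6 in the table were tested on log2(TPM + 1) in 1 limma fit (limma 3.58.1, statmod 1.5.0, R 4.3.3) on the groups, using a variance trend, robust moderation and 3 residual degrees of freedom. Tests were two-sided. The script was tested on simulated data.

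The comparison, the 28 gene lists and the tests were chosen with earlier results of these data known, and the 4 lists of the closing section after the values were seen. The genes named were 38 fixed ones, the 15 largest log2 rises and falls with a group mean of at least 5 TPM and libraries that did not overlap, the 5 largest gains and losses in TPM, the 5 genes farthest above and below the line from 2i to 48 h, and the 4 strongest list members by p-value, leaving out, by their names, predicted genes, pseudogenes whose symbol ends in -ps and ribosomal protein genes. Some genes that the rule names are not reported here. Other list members named were chosen after their values were seen. Members were matched by symbol. Aldoa has 2 IDs, and the value given is that of the higher. Promoters came from RefSeq and matched 10866 of the genes tested.

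The alternatives were no filter, a minimum of 5 TPM, a pseudocount of 0.1, no variance trend or robust moderation, median-of-ratios scaling, mitochondrial transcripts left out, a replicate block, a fit of the 4 libraries alone, each library left out in turn, a minimum of 2-fold and a threshold of 0.01.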

Additional observations from a re-analysis of the deposited data

How the results depend on the processing

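Calls from 2i to 24 h numbered 12578 in the fit of all libraries and between 11363 and 12278 when a library was left out, between 5286 and 5816 of them higher and between 5712 and 6462 lower. Genes off the line between 2i and 48 h numbered 12709 and between 11201 and 12136 when a library was left out, between 4494 and 5208 of them above it and between 6686 and 6956 below. Requiring 2-fold reduced the calls to 2943 (1231 higher, 1712 lower) and those off the line to 1874 (594 above, 1280 below). The share of higher genes among the calls was 47.6% and lay between 46.0% and 50.1% over the alternatives that refitted the data. Replicate numbers did not pair the samples: same-numbered libraries deviated together with correlations of -0.02, 0.09 and 0.04, and with the replicate number as a block 12489 genes passed. Median-of-ratios scaling gave 12614 calls, placed 6101 genes above and 6634 below the line (5239 and 7470 without it), and reversed no gene that is named. Socs3, which did not pass, turned to -0.044 (adjusted p = 0.733) without the first 2i library, and passed with 0.43 (adjusted p = 0.0148) without the second. Rsad2, an interferon response gene, and mt-Atp8 passed in the fit of all libraries and lost the call without the first 2i library, with log2 changes of 0.32 and -0.26. Rsad2 also lost it without the first 24 h library, with 0.31. Of the counts of list members, 33 moved by over 1.5 times and 751 did not. Depth is unknown, so it is not known which low genes it limits.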

Other observations

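Genes of ribosome biogenesis, a list chosen after the values were seen, rose for 23 of 24 members, 12 by at least 2-fold, against 36.2% and 7.43% of all genes tested, and the median change was 1.03. Nolc1, a nucleolar phosphoprotein, had 82.2 and 89.4 TPM in 2i and 269 and 267 TPM at 24 h (log2 change 1.63, SE 0.041, adjusted p = 2.07e-07). Ncl (nucleolin), the major nucleolar protein, had 1038 and 1123 TPM in 2i and 2145 and 2141 TPM at 24 h, and Polr1b, a subunit of RNA polymerase I, had 29.5 and 30.8 TPM in 2i and 80.1 and 79.4 TPM at 24 h. Dkc1, the pseudouridine synthase dyskerin, did not pass, with 250.2 and 265 TPM in 2i and 253 and 248 TPM at 24 h (adjusted p = 0.414). All 24 stood above the midpoint of 2i and 48 h, and for 23 both 24 h libraries were above all others. Polr1b, for example, had 46.7 and 45.6 TPM at 48 h.

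Targets of the hypoxia-inducible factors, also chosen afterwards, fell for 19 of 24 members, 13 by at least 2-fold, against 39.8% and 10.3% of all genes tested, and the median change was -1.31. Ppp1r3c passed the minimum only through 2i and had to differ. P4ha1, a collagen prolyl hydroxylase, had 90.7 and 94.2 TPM in 2i and 8.81 and 9.15 TPM at 24 h (log2 change -3.23, SE 0.041, adjusted p = 2.81e-08). Bnip3, a mitophagy receptor, had 244 and 259.7 TPM in 2i and 39.5 and 40.4 TPM at 24 h, and Vegfa, the angiogenic ligand, had 61 and 61.5 TPM in 2i and 18.8 and 18.5 TPM at 24 h. Hif1a and Epas1, which encode the factors themselves and are counted among the 24, were the 2 members that rose. Hif1a went from 47.2 and 43.5 TPM to 72.1 and 71.8 TPM and Epas1 from 8.79 and 10.3 TPM to 19.8 and 18.8 TPM. Mt1 and Mt2, the metallothioneins, and Hilpda, a lipid droplet protein, did not pass, and Mt1 had 1157 and 1217 TPM in 2i and 1147 and 1097 TPM at 24 h.

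Imprinted genes, also chosen afterwards, were higher for 13 of 27 (48.1%) and lower for 11 (40.7%), against 36.2% and 39.8% of all genes tested. By at least 2-fold 9 rose and 3 fell, against 7.43% and 10.3% of all genes tested. H19, a maternally expressed non-coding RNA, had 11.6 and 9.71 TPM in 2i and 3.18 and 3.23 TPM at 24 h and 75.9 and 82.4 TPM at 48 h. Igf2, its paternally expressed neighbour, had 5.08 and 5 TPM in 2i and 3.45 and 3.56 TPM at 24 h and 60.4 and 62.9 TPM at 48 h. Cdkn1c (p57), a cyclin-dependent kinase inhibitor, had 15.3 and 15.2 TPM in 2i and 91.7 and 93.9 TPM at 24 h, and Nnat (neuronatin) had 0.43 and 0.51 TPM in 2i and 8.61 and 8.22 TPM at 24 h. Mest, another paternally expressed gene, had 20.1 and 20.3 TPM in 2i and 92.4 and 90.7 TPM at 24 h and 572 and 563 TPM at 48 h.

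Nuclear genes of oxidative phosphorylation, chosen afterwards too, were higher for 10 of 28 and lower for 13, none by 2-fold, with a median change of -0.03. Uqcrc2, a subunit of complex III, had 209 and 205 TPM in 2i and 145 and 145 TPM at 24 h, and Ndufb10, a subunit of complex I, had 93.7 and 96.3 TPM in 2i and 125 and 119 TPM at 24 h.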
